A study of Homo sapiens with 4 samples.

Results

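The KLF zinc finger factors were followed in human CD31+ cells with and without ectopic HAND1. The 10 members were KLF1, KLF2, KLF3, KLF4, KLF5, KLF6, KLF7, KLF9, KLF10 and KLF13, taken by symbol from the 58229 genes of the table. The cells were made from the established human embryonic stem line H1, which was taken through hematopoietic differentiation in activin A and BMP4 and then in VEGF and bFGF, and CD31+ cells were collected at day 8. CD31 is a surface protein of endothelial and early blood cells. The 2 Control and 2 HAND1_OE libraries came from the same line and the same stage and differed by label in the overexpression of HAND1, a basic helix-loop-helix factor of mesoderm and heart. The study asked what ectopic HAND1, present before hemogenic endothelium gives rise to blood progenitors, does to that step. The vector, its promoter and the number of clones are not given in the sources used here. Nothing in the labels says that the libraries of a group came from separate cultures, so p-values measure only the spread between these samples, which may be technical.

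KLF proteins share a DNA-binding end of C2H2 zinc fingers that reads CACCC and GC boxes, while the rest of the protein differs and recruits activators or corepressors. KLF1 is the erythroid member and activates globin, heme and red cell membrane genes, and KLF3 is a repressor that competes for many of the same CACCC boxes and is itself a KLF1 target. KLF2 and KLF4 are induced in endothelium by laminar flow through the MEKK3-ERK5-MEF2 cascade and keep vessels quiescent. KLF6 is an early growth and injury response factor, KLF10 a TGF-beta early response gene, KLF9 a glucocorticoid-induced gene, KLF5 an epithelial and smooth muscle factor, and KLF7 and KLF13 are more widely expressed members known from neurons and lymphocytes.

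The finger end is what makes these genes a family, so its coding sequence is shown for the erythroid and the flow-related pair. In all 10 members the longest reading frame of a GENCODE transcript held 3 C2H2 fingers in a span of 81 residues, coded by 243 bases. Over the 45 pairs of members the span was identical at 60.5 to 95.1% of residues (median 75.3%) and at 55.1 to 83.5% of bases (median 65.4%). KLF2 and KLF4 shared 95.1% of residues and 78.6% of bases, KLF1 and KLF2 shared 85.2% and 81.9%, and KLF1 and KLF3 shared 77.8% and 63.8%. The sequences below code for the third finger, 63 bases in the last exon of each gene, 5′ to 3′ on the coding strand. Capitals mark the 33 bases that are the same in all 4 genes. On GRCh38 they lie at chr19:12884891-12884953 (minus strand, exon 3 of 3) for KLF1, chr4:38697189-38697251 (plus strand, exon 6 of 6) for KLF3, chr19:16326963-16327025 (plus strand, exon 3 of 3) for KLF2 and chr9:107485757-107485819 (minus strand, exon 5 of 5) for KLF4.
KLF1: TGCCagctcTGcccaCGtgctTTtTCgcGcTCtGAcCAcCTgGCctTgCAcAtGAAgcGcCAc
KLF3: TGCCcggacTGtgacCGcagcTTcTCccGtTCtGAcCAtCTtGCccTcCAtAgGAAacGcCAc
KLF2: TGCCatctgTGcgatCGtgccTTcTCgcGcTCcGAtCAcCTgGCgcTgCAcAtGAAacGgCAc
KLF4: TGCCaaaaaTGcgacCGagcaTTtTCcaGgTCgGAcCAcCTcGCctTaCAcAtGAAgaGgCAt
The differences between genes were spread along the finger. No stretch of 50 bases of any member's transcripts occurred in a transcript of another member. Against other genes the share of such stretches was 3.99% for KLF3, of which 3.49% fell in KLF3-AS1, 0.341% for KLF13 and 0.17% for KLF7, and 0 for the remaining 7 members.

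Values are FPKM, fragments scaled to transcript length and to library depth, which allows levels to be compared between genes. The 4 libraries had 13989 to 14542 genes at 1 FPKM or more, and the number of reads behind the values is not known. HAND1 itself was at 12.1 and 14.3 FPKM in Control, against 520 and 517 FPKM in HAND1_OE. This is a log2 difference of 5.20 ± 0.15 (SE; limma, Benjamini-Hochberg adjusted p = 0.00145), so the libraries carried the levels their labels name. Differences were tested with limma on log2(FPKM + 1) over the 14622 genes at 1 FPKM or more in at least 2 libraries, and a gene was called at an adjusted p under 0.05. The median log2 difference over all tested genes was -0.08.

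Of the 10 KLF genes 9 could be tested, and 1 was called. KLF1 fell, against a background of 2.11% of tested genes called lower and 4.16% called in either direction, and 0 of 9 members rose against 2.04% called higher. At an unadjusted p under 0.05 limma, the only tool run, added 1 member, KLF6, on the higher side. The median log2 difference of the 9 members was 0.19. For KLF3 and KLF6 the lower HAND1_OE library exceeded the higher Control library, as it did for 16.2% of tested genes, and KLF1 showed the reverse, as did 30.1%. In the other 6 tested members the groups overlapped. KLF1 was thus the only called member, and its difference was also the widest of the 10.

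**Figure D1:**
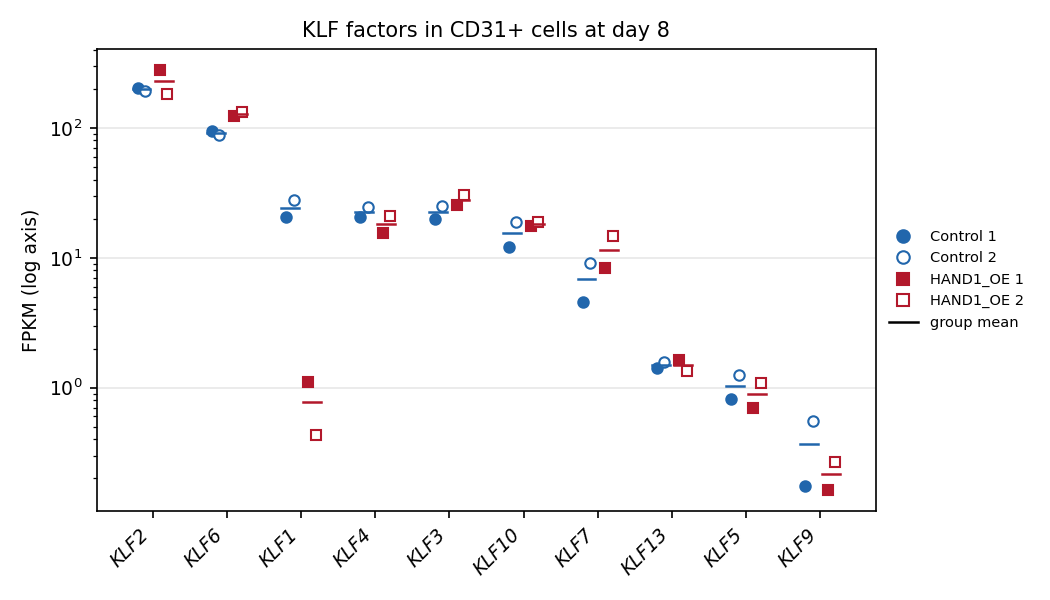
FPKM of each KLF gene (log axis) in the 2 Control and 2 HAND1_OE libraries, each point a library and each bar a group mean. KLF1 drops from 24.2 to 0.771 FPKM on average, while the points of most other members lie close together or overlap.

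In Control the order of levels ran from KLF2 (198 ± 9.15 FPKM; mean ± SD, n = 2, as below) through KLF6 (91.6 ± 3.90 FPKM) to KLF1, KLF4 and KLF3. These 3 neighbours, at 24.2 ± 5.19, 22.6 ± 2.65 and 22.4 ± 3.66 FPKM, overlapped in their libraries. KLF10 followed at 15.6 ± 4.80 FPKM, with 1 library just under the lower library of KLF3, and then KLF7 at 6.81 ± 3.18 FPKM. KLF13, KLF5 and KLF9 were lowest, each at 1.59 FPKM or less in every Control library. In HAND1_OE KLF2 and KLF6 again led, at 230.0 ± 67.9 and 128 ± 5.80 FPKM, and KLF3 came next at 27.9 ± 3.41 FPKM. KLF4 and KLF10 overlapped at a mean of 18.2 FPKM each, and KLF1 stood among KLF5, KLF13 and KLF9 at the bottom of the order, its libraries overlapping those of KLF5.

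KLF1 (ENSG00000105610.4, chr19:12884423-12887181 on GRCh38) was at 20.5 and 27.9 FPKM in Control, against 1.11 and 0.436 FPKM in HAND1_OE. Both HAND1_OE libraries were far below both Control libraries, and the ratio of the means was 31.4. On the log2(FPKM + 1) scale, which understates changes of low values, KLF1 fell by 3.84 (SE 0.263, 95% interval -4.50 to -3.19; limma, Benjamini-Hochberg adjusted p = 0.007). It was the gene with the 10th most negative difference of all 14622. Among tested genes it stood at percentile 69.8 and 77.55 in the Control libraries and at 7.54 and 1.74 in the HAND1_OE libraries. Leaving out any 1 library left the difference between -4.12 and -3.56 with an adjusted p of 0.0114 or less. In these bulk samples fewer cells of a type and less RNA per cell cannot be told apart.

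The genes whose levels over the 4 libraries most resembled KLF1 were ranked by Euclidean distance of centred log2(FPKM + 1) profiles. NFE2 was nearest at 0.143, followed by GATA1 at 0.189, MYL4 at 0.302, ITGA2B at 0.305 and HBG2 at 0.341. NFE2 and GATA1 are erythroid and megakaryocytic transcription factors, MYL4 a myosin light chain, ITGA2B the platelet integrin CD41 and HBG2 a fetal globin with a near-identical neighbour, HBG1, so its own level is uncertain. With 2 libraries in each group, this ranks mainly the size of the group difference.

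KLF1 has a GATA-type match upstream of its start, and its upstream bases are shown because GATA1 is a known activator of KLF1 and both fell here. The sequence is from RefSeq (GRCh38.p14), chr19:12887202-12887451 on the minus strand, the 250 bases before the start, written 5′ to 3′ in the direction of the gene. Capitals mark matches on either strand to the GATA motif GATAA, the CAAT box CCAAT and the E-box CANNTG as searched.
KLF1: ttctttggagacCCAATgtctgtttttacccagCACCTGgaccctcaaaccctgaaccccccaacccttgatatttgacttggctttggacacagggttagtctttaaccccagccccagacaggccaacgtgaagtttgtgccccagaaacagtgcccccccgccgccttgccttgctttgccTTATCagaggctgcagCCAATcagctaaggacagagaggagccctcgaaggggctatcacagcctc
The motif GATAA occurred once, on the opposite strand and so printed as TTATC, at -66 to -62 from the start. CCAAT began at -238 and -50, and the CANNTG match CACCTG at -217. Of 35116 promoters of the same length, 20.4% held GATAA, 32.0% CCAAT and 61.8% CANNTG on either strand. CACCC, held by 54.7%, was not in this window. A match is a description of these letters and shows no binding.

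Most erythroid regulators upstream of or beside KLF1 fell as well. Of 8 tested genes 5 were called lower and 0 higher, against 2.11% and 2.04% of all tested genes, with a median log2 difference of -1.17 against -0.08. In 7 of 8 the groups did not overlap and HAND1_OE was lower, against 30.1% of all tested genes. GATA1, the master erythroid GATA factor, was at 25.6 and 29.6 FPKM in Control, against 1.51 and 0.543 FPKM in HAND1_OE (log2 difference -3.86, limma, Benjamini-Hochberg adjusted p = 0.007). NFE2, which drives globin and platelet genes, was at 33.3 and 40.2 FPKM and then at 2.42 and 1.26 FPKM (-3.76, adjusted p = 0.00662). GFI1B, a repressor needed for red cells and megakaryocytes, was at 12.3 and 12.01 FPKM and then at 0.956 and 0.232 FPKM (-3.08, adjusted p = 0.00754). GFI1B was under 1 FPKM in both HAND1_OE libraries, so it passed the filter through Control alone and could only be found to fall. GATA1, NFE2 and GFI1B fell by less than KLF1 in ratio but further than the other regulators. The bridging factors LMO2 (-1.22, adjusted p = 0.0258) and LDB1 (-0.88, adjusted p = 0.0453) fell less and kept clear expression at 57.9 to 66.0 and 40.1 to 45.8 FPKM in HAND1_OE. Their calls were lost on leaving out 1 library, LMO2 without Control 2 or HAND1_OE 2 and LDB1 without any 1 of the 4. The differences stayed between -1.37 and -1.07 for LMO2 and between -0.98 and -0.78 for LDB1. TAL1 was at 35.8 and 47.8 FPKM in Control, against 11.97 and 28.4 FPKM in HAND1_OE and was not called (-1.12, adjusted p = 0.232). The erythropoietin receptor EPOR (-0.56, adjusted p = 0.143) and the GATA cofactor ZFPM1 (-0.36, adjusted p = 0.594) were not called.

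**Figure D2:**
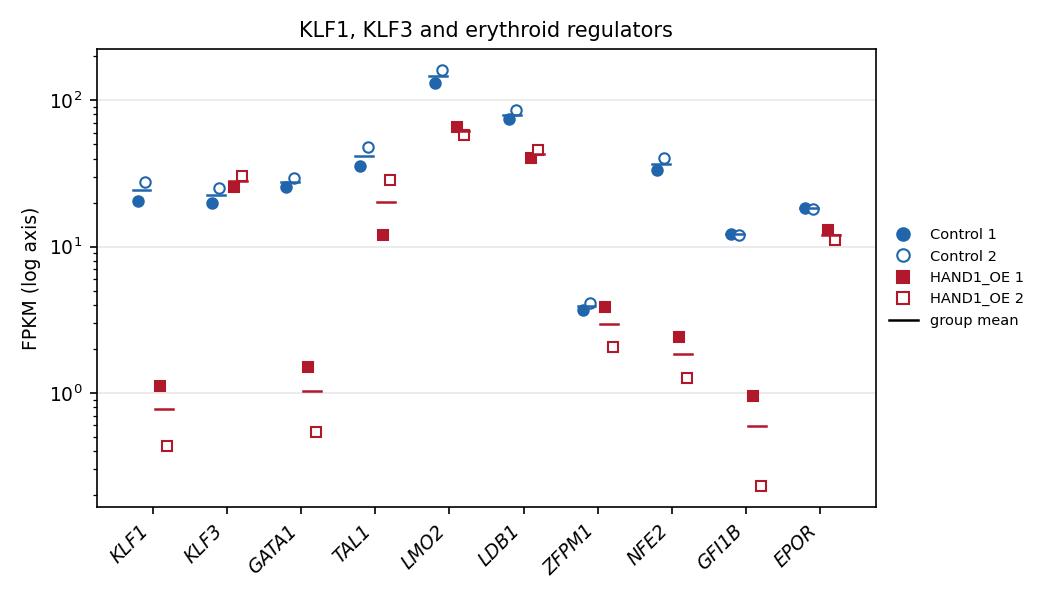
FPKM (log axis) of KLF1, KLF3 and 8 erythroid regulators in the 2 Control and 2 HAND1_OE libraries, each point a library and each bar a group mean. GATA1, NFE2 and GFI1B lie far apart between groups, as KLF1 does, with ratios of the means of 26.9, 20.0 and 20.4 against 31.4 for KLF1, the remaining regulators lie closer together between groups, and the HAND1_OE points of KLF3 lie slightly above its Control points.

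Among erythroid genes known as KLF1 targets, 14 of 20 could be tested, and 5 were called lower and 0 higher, against 2.11% and 2.04% of all tested genes. The median log2 difference was -0.49 against -0.08. In 10 of 14 the groups did not overlap and HAND1_OE was lower, against 30.1% of all tested genes, and in 1 it was higher, against 16.2%. ALAS2, the rate-limiting enzyme of erythroid heme synthesis, was at 35.3 and 72.0 FPKM in Control, against 1.82 and 1.87 FPKM in HAND1_OE (-4.18, limma, Benjamini-Hochberg adjusted p = 0.0073). The blood group genes KEL (-2.17, adjusted p = 0.0194), ICAM4 (-1.97, adjusted p = 0.007) and BCAM (-1.13, adjusted p = 0.022) fell less. The BCAM call was lost without either Control library, while leaving out any 1 library kept its difference between -1.24 and -1.02. The late targets were low in every library. AHSP, the alpha globin chaperone, was at 0.432 and 0.400 FPKM in Control and listed at 0 in HAND1_OE, SLC4A1 (band 3) did not exceed 0.0564 FPKM, and the adult globin HBB was at 1.86 to 3.82 FPKM and was not called (-0.42, adjusted p = 0.476). CD44, a widely expressed adhesion receptor, had the opposite sign at 38.8 and 61.2 FPKM in Control and 75.1 and 117 FPKM in HAND1_OE (0.93, adjusted p = 0.195) and was not called.

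KLF3 (chr4:38664196-38701042) did not follow KLF1. It was at 19.9 and 25.0 FPKM in Control, against 25.5 and 30.3 FPKM in HAND1_OE, so that both HAND1_OE libraries were the higher ones. The gap between the groups, from 25.0 to 25.5 FPKM, was far smaller than the spread within either group. The log2 difference was 0.31 (SE 0.183, 95% interval -0.15 to 0.76; limma, Benjamini-Hochberg adjusted p = 0.487), and KLF3 was not called. The difference was 0.15 without Control 1, 0.19 without HAND1_OE 2 and 0.47 without Control 2. The ratio of KLF1 to KLF3 FPKM was 1.03 and 1.11 in Control and 0.0434 and 0.0144 in HAND1_OE. The antisense transcript KLF3-AS1 overlaps KLF3 and was at 4.96 to 6.67 FPKM in the 4 libraries (0.20, adjusted p = 0.669). Counting by strand is not stated, so reads where the genes overlap cannot be told apart.

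KLF2 (chr19:16324817-16327874) was the most abundant member in every library, at percentile 97.4 to 98.2 of tested genes. It was at 204 and 191 FPKM in Control, against 278 and 182 FPKM in HAND1_OE. The HAND1_OE libraries lay on either side of the Control libraries, and the log2 difference was 0.19 (SE 0.232, 95% interval -0.39 to 0.76; limma, Benjamini-Hochberg adjusted p = 0.773). Its sign rested on a single library, since without HAND1_OE 1 it was -0.12. The processed pseudogene KLF2P1 was at 1.30 to 2.97 FPKM and was not called (-0.53, adjusted p = 0.289).

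KLF4 (chr9:107484852-107490482), the other flow-related factor and one of the reprogramming factors, was at 20.7 and 24.4 FPKM in Control, against 15.4 and 20.9 FPKM in HAND1_OE. The groups overlapped narrowly, with a log2 difference of -0.31 (SE 0.199, 95% interval -0.80 to 0.19; limma, Benjamini-Hochberg adjusted p = 0.529). KLF2 exceeded KLF4 in every library, by a ratio of 9.87 and 7.83 in Control and of 18.0 and 8.69 in HAND1_OE. Leaving out 1 library moved the KLF4 difference between -0.099 (without HAND1_OE 1) and -0.52 (without HAND1_OE 2). With 2 libraries in a group the intervals of both genes are wide and do not mark a limit of detection. Differences beyond them could also miss the threshold after adjustment over all tested genes.

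The bases before the KLF2 start are shown because KLF2 is a known MEF2 target and MEF2 is the end of the flow cascade described next. The sequence is from RefSeq (GRCh38.p14), chr19:16324576-16324825 on the plus strand, the 250 bases before the start, 5′ to 3′. Capitals mark the match to the MEF2 consensus, at -120 to -111, a motif that was looked at after this sequence had been seen.
KLF2: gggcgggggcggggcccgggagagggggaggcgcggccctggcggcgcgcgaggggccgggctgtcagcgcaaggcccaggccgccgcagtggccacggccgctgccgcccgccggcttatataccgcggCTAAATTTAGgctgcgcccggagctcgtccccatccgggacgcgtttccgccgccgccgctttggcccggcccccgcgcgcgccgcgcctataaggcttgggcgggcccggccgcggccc
The MEF2 consensus was found in 2.80% of the 35116 promoters. The window also held 4 matches to the GC box GGGCGG on either strand, which 42.6% of promoters held at least once, and no match to the 4 other motifs searched, the GATA motif, the CAAT box, the CACCC box and the E-box. Promoters were found for 8 of the 10 members, and the KLF4 window held 4 GC boxes and no MEF2 consensus.

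The pathway above KLF2 and KLF4 showed no called gene. Of 14 flow-sensing and MEKK3-ERK5-MEF2 genes, all tested, limma called 0 in either direction (2 at an unadjusted p under 0.05), against 4.16% of all tested genes, and the median log2 difference was -0.05. HEG1, an endothelial receptor that binds the CCM complex upstream of MEKK3, was at 9.64 and 14.4 FPKM in Control, against 20.3 and 32.8 FPKM in HAND1_OE, apart between groups but not called (1.07, Benjamini-Hochberg adjusted p = 0.136). MEF2C, an endothelial MEF2 factor, was at 15.7 to 28.0 FPKM with overlapping groups. The groups did not overlap for 8 of the 14 genes, against 46.3% of all tested genes.

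The endothelial genes below KLF2 and KLF4 did not move in 1 direction. Of the genes known to be induced, 6 of 7 were tested, and 1 was called lower and 0 higher, against 2.11% and 2.04% of all tested genes. The median log2 difference was -0.10. S1PR1, a receptor for sphingosine 1-phosphate that stabilises vessels, was the gene called lower (-0.94, limma, Benjamini-Hochberg adjusted p = 0.0341). It was at 40.9 and 39.8 FPKM in Control, against 19.2 and 22.04 FPKM in HAND1_OE. The call was lost without Control 1, Control 2 or HAND1_OE 1. On leaving out any 1 library the difference stayed between -1.03 and -0.84. Thrombomodulin, THBD, was at 17.6 and 25.3 FPKM and then at 8.47 and 10.5 FPKM (-1.08, adjusted p = 0.0665). The nitric oxide synthase gene NOS3 was at 82.0 and 63.0 FPKM and then at 113 and 71.5 FPKM (0.32, adjusted p = 0.632). Neither of these was called.

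Of the genes known to be repressed by KLF2 or KLF4, 6 of 7 were tested, and 0 were called lower and 2 higher, against 2.11% and 2.04% of all tested genes. The median was -0.06. ANGPT2, an antagonist of the TIE2 receptor that destabilises vessels, was at 5.92 and 6.63 FPKM in Control, against 59.3 and 52.4 FPKM in HAND1_OE (2.96, limma, Benjamini-Hochberg adjusted p = 0.00379). CCL2, a chemokine that attracts monocytes, was at 2.89 and 2.10 FPKM and then at 10.6 and 9.71 FPKM (1.68, adjusted p = 0.0153). Both calls held on leaving out any 1 library. The RNA levels of KLF2 and KLF4 overlapped between the same libraries, and a part of either factor in these differences was not tested.

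**Figure D3:**
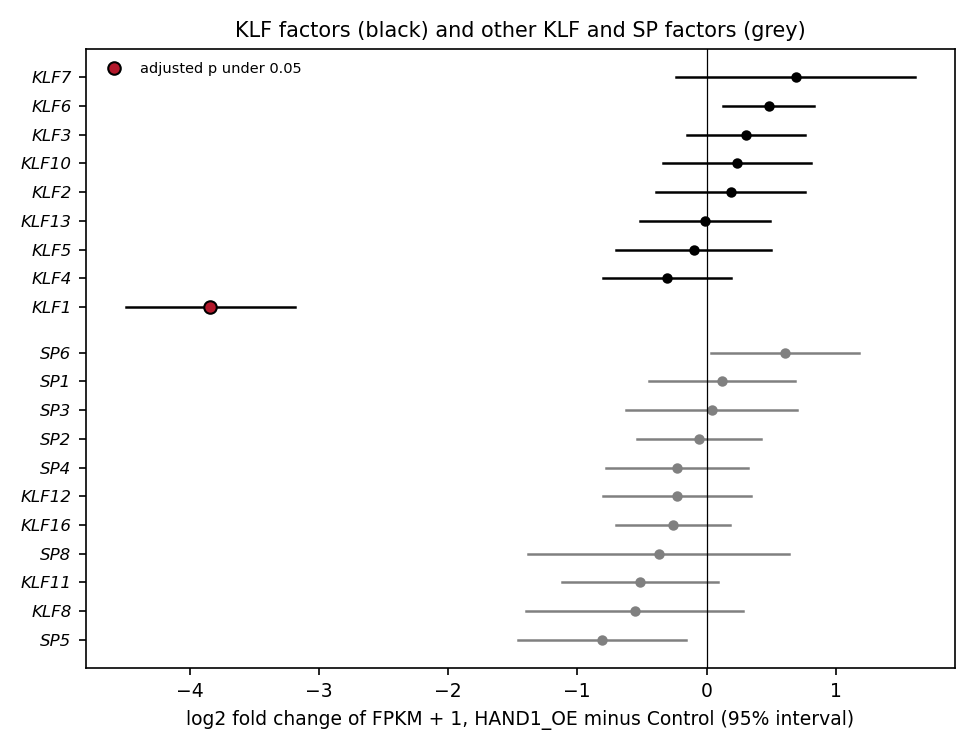
Log2 difference of FPKM + 1, HAND1_OE minus Control, for the 9 tested KLF members (black) and 11 other tested KLF and SP factors (grey), with 95% intervals from limma and the called gene in red. The interval of KLF1 runs from -4.50 to -3.19 and that of KLF6 from 0.13 to 0.83, while those of the other 7 members include 0.

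KLF6 (chr10:3775996-3785281) came nearest to a call on the higher side. It was at 94.4 and 88.9 FPKM in Control, against 124 and 132 FPKM in HAND1_OE, with both HAND1_OE libraries above both Control libraries. The ratio of the means was 1.40 and the log2 difference 0.48 (SE 0.142, 95% interval 0.13 to 0.83; limma, unadjusted p = 0.0164, Benjamini-Hochberg adjusted p = 0.160), which did not pass the threshold. By the size of its difference KLF6 ranked 2837 of 14622 genes.

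KLF10 (chr8:102648779-102655902) was at 12.2 and 19.0 FPKM in Control, against 17.6 and 18.7 FPKM in HAND1_OE, with overlapping groups (0.24, SE 0.230, 95% interval -0.33 to 0.81; limma, Benjamini-Hochberg adjusted p = 0.700). Its sign turned to -0.06 without Control 1, the low library. Of the 9 TGF-beta receptors, SMADs and early genes listed beside it, all tested, 0 were called lower and 1 higher, against 2.11% and 2.04% of all tested genes. The median was 0.10. SMAD3, a signal transducer of TGF-beta, was at 5.40 and 6.68 FPKM in Control, against 13.0 and 13.7 FPKM in HAND1_OE (1.03, adjusted p = 0.0379). This call was lost on leaving out any 1 library, while the difference stayed between 0.903 and 1.165.

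KLF7 (chr2:207074137-207167267) was at 4.57 and 9.06 FPKM in Control, against 8.29 and 14.7 FPKM in HAND1_OE. In both groups the second library was the higher one, and the groups overlapped (0.69, SE 0.372, 95% interval -0.24 to 1.62; limma, Benjamini-Hochberg adjusted p = 0.440). The difference was 0.26 without Control 1, 0.31 without HAND1_OE 2, 1.12 without Control 2 and 1.07 without HAND1_OE 1. The transcript KLF7-IT1, annotated at chr2:207120884-207122044 within KLF7, was named after its values were seen. It was at 0.986 and 1.22 FPKM in Control, against 3.86 and 3.38 FPKM in HAND1_OE (1.13, limma, adjusted p = 0.0419). The call was lost without any 1 library, while the difference stayed between 1.05 and 1.22. Since KLF7-IT1 lies inside KLF7, how reads were divided between them is not known.

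The remaining members were low, at 1.62 FPKM or less in every library. KLF13 (chr15:31326855-31435665) was at 1.41 and 1.59 FPKM in Control, against 1.62 and 1.34 FPKM in HAND1_OE (-0.01, 95% interval -0.51 to 0.49; limma, Benjamini-Hochberg adjusted p = 0.987). KLF5 (chr13:73054976-73077542) was at 0.812 and 1.25 FPKM and then at 0.702 and 1.09 FPKM (-0.10, 95% interval -0.70 to 0.50; adjusted p = 0.896). KLF9 (chr9:70384597-70414624) was at 0.175 and 0.558 FPKM and then at 0.164 and 0.267 FPKM and was not tested. In all 3 the groups overlapped.

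Of 5 glucocorticoid-linked genes listed beside KLF9, all tested, 1 was called lower and 1 higher, against 2.11% and 2.04% of all tested genes. All 5 had an unadjusted p under 0.05 by limma. The groups overlapped in none of them, with 4 lower and 1 higher in HAND1_OE, against 30.1% and 16.2% of all tested genes. ZBTB16, a zinc finger factor induced by glucocorticoids, was at 2.81 and 4.01 FPKM in Control, against 0.685 and 0.815 FPKM in HAND1_OE (-1.32, limma, Benjamini-Hochberg adjusted p = 0.041). It passed the filter through Control alone, so only a fall could be found for it. The glucocorticoid receptor NR3C1 was at 2.94 and 3.15 FPKM and then at 6.66 and 6.61 FPKM (0.92, adjusted p = 0.0477). Neither call survived leaving out any 1 library. The differences stayed between -1.52 and -1.12 for ZBTB16 and between 0.88 and 0.95 for NR3C1. The median of the list was -0.51.

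The 10 members together were at 379 and 389 FPKM in Control, against 472 and 402 FPKM in HAND1_OE, a difference of 53.5 FPKM (two-sided exact permutation test, p = 0.3333, the smallest that 2 against 2 can give, so that the test could not pass). The groups did not overlap, and the difference was 18.3 FPKM without HAND1_OE 1 and 88.7 FPKM without HAND1_OE 2. With median-ratio scaling the difference was 79.9 FPKM, so its size depended on the scaling. KLF1 and KLF3 together were at 40.4 and 52.9 FPKM and then at 26.6 and 30.8 FPKM (exact permutation test, p = 0.3333). KLF2 and KLF4 together were at 225 and 216 FPKM and then at 293 and 203 FPKM (exact permutation test, p = 1). The other 6 were at 114 and 120 FPKM and then at 152 and 168 FPKM (exact permutation test, p = 0.3333). KLF2 made up 49.2 to 53.9% of the family's FPKM in Control and 45.3 to 58.8% in HAND1_OE, while the share of KLF1 was 5.42 and 7.17% in Control and 0.234 and 0.108% in HAND1_OE. KLF6 was the next largest, at 24.9 and 22.9% in Control and 26.3 and 32.9% in HAND1_OE.

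**Figure D4:**
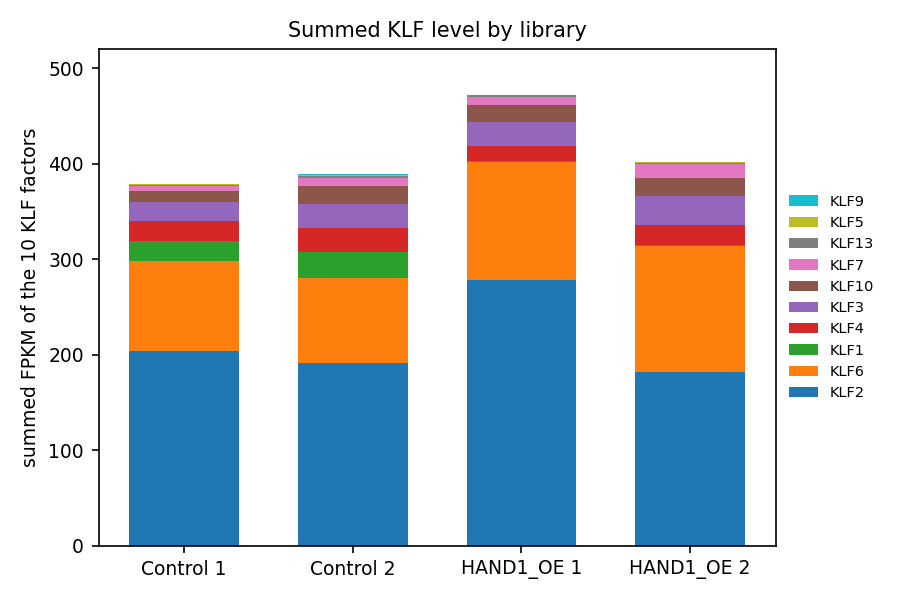
Stacked FPKM of the 10 KLF genes in each of the 4 libraries. The totals run from 379 to 472 FPKM, KLF2 and KLF6 fill most of each bar, and the KLF1 segment is visible in the Control libraries only.

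The related KLF and SP factors outside the 10, which bind the same GC and CACCC boxes, numbered 17, of which 11 were tested. Limma called 0 in either direction (2 at an unadjusted p under 0.05), against 4.16% of all tested genes, and the median log2 difference was -0.23. SP6 was at 35.01 and 54.0 FPKM in Control, against 70.2 and 63.6 FPKM in HAND1_OE (0.61, Benjamini-Hochberg adjusted p = 0.259). SP5, a Wnt target gene, was at 5.63 and 9.23 FPKM and then at 3.25 and 4.20 FPKM (-0.81, adjusted p = 0.195). KLF11, a TGF-beta inducible relative of KLF10, was at 7.50 and 10.6 FPKM and then at 4.99 and 7.08 FPKM (-0.52, adjusted p = 0.368). The groups did not overlap for 4 of the 11 lower and 1 higher in HAND1_OE, against 30.1% and 16.2% of all tested genes. The 3 genes named here were among them.

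Of 12 cofactors and degradation factors of KLF proteins, all tested, 0 were called lower and 1 higher, against 2.11% and 2.04% of all tested genes. The median was 0.05. KAT2B, an acetyltransferase that serves as a coactivator, was at 7.91 and 8.33 FPKM in Control, against 15.1 and 16.0 FPKM in HAND1_OE (0.86, limma, Benjamini-Hochberg adjusted p = 0.0429). The call was lost without any 1 library, while the difference stayed between 0.82 and 0.90. WWP1 and FBXW7, ubiquitin ligases that act on KLF proteins, overlapped between groups.

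Several KLF genes respond within minutes to cell handling, so immediate early and dissociation genes were set beside them. Of 15 tested, 2 were called lower and 0 higher, against 2.11% and 2.04% of all tested genes, with a median of -0.54. JUNB was at 233 and 223 FPKM in Control, against 99.8 and 83.4 FPKM in HAND1_OE (-1.31, limma, Benjamini-Hochberg adjusted p = 0.0174), and ZFP36 at 69.7 and 89.5 FPKM and then at 34.1 and 38.8 FPKM (-1.10, adjusted p = 0.0369). The call of JUNB was lost without either Control library and that of ZFP36 without Control 1, Control 2 or HAND1_OE 1. Leaving out any 1 library kept the difference between -1.44 and -1.18 for JUNB and between -1.275 and -0.92 for ZFP36. The list summed to 1677 and 2333 FPKM in Control and to 1207 and 1337 FPKM in HAND1_OE, with HSPA1A and HSPA1B listed at 0. The part of handling in the KLF values was not tested.

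Markers of other cells moved with KLF1. Of 9 erythroid markers tested all 9 fell, among them GYPB (-4.93, limma, Benjamini-Hochberg adjusted p = 0.00335), HBE1 (-4.19, adjusted p = 0.00607) and ALAS2, and the 12 markers summed to 825 and 1209 FPKM in Control and to 54.7 and 44.999 FPKM in HAND1_OE. Of the late defining markers, SLC4A1 and AHSP were at 0.432 FPKM or less in every library. All 5 tested megakaryocyte markers fell (119 and 153 FPKM, then 12.8 and 7.88 FPKM), as did 4 of 5 myeloid markers (108 and 82.6 FPKM, then 11.2 and 7.63 FPKM) and 6 of 7 pan-blood markers (88.2 and 118 FPKM, then 17.8 and 24.0 FPKM). Of all tested genes 2.11% were called lower. Some markers, among them HBG1, ITGB3, GP9, PF4, LYZ, GFI1 and VAV1, were under 1 FPKM in both HAND1_OE libraries. They passed the filter through Control alone, so only a fall could be found for them. ITGA2B (-3.62), SPI1 (-2.86, adjusted p = 0.0149) and RUNX1 (-3.22, adjusted p = 0.0132) were examples from these lists, while PTPRC and MPO were near 0 throughout. Of the calls in these lists, PF4 was lost without Control 1, Control 2 or HAND1_OE 2 and CORO1A without any 1 library. The differences stayed between -1.77 and -1.34 for PF4 and between -0.97 and -0.92 for CORO1A. The part of these cell types in the KLF1 result was not tested.

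Endothelial markers summed to 1752 to 2233 FPKM in Control and 2032 to 2336 FPKM in HAND1_OE, but not every member was high. ROBO4 was at 7.91 and 10.7 FPKM in Control, against 1.56 and 5.52 FPKM in HAND1_OE (-1.32, limma, Benjamini-Hochberg adjusted p = 0.217). Of 12 endothelial markers 0 were called lower and 1 higher, VWF (2.18, adjusted p = 0.0338), against 2.11% and 2.04% of all tested genes. At an unadjusted p under 0.05 limma gave 3. The groups did not overlap for 3 markers lower and 3 higher in HAND1_OE, against 30.1% and 16.2% of all tested genes. PECAM1, which encodes CD31, was at 95.5 and 141 FPKM in Control, against 92.0 and 160 FPKM in HAND1_OE (adjusted p = 0.955). Against 2.11% of all tested genes called lower and 2.04% called higher, 0 of 9 tested mesenchymal markers were called lower and 3 higher. These were PDGFRB (2.03, adjusted p = 0.0164), POSTN (1.97, adjusted p = 0.009) and LUM (1.41, adjusted p = 0.0214), the last call lost without Control 1. POSTN was at 0.825 and 0.922 FPKM in Control, so it passed the filter through HAND1_OE alone and could only be found to rise. Against 16.2% of all tested genes higher and 30.1% lower, the groups did not overlap for 6 markers higher and 2 lower in HAND1_OE. The lower ones were COL1A1 (-0.23, adjusted p = 0.520) and COL1A2 (-0.82, adjusted p = 0.123). The mesenchymal list summed to 536 and 439 FPKM in Control and to 661 and 595 FPKM in HAND1_OE. Limma called 0 of 6 epithelial and 0 of 4 cardiac muscle markers, against 4.16% of all tested genes in either direction. At an unadjusted p under 0.05 limma gave 0 and 2. Of 6 pluripotency markers tested 1 was called lower, GDF3 (-1.96, adjusted p = 0.0104), against 2.11% of all tested genes.

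**Figure D5:**
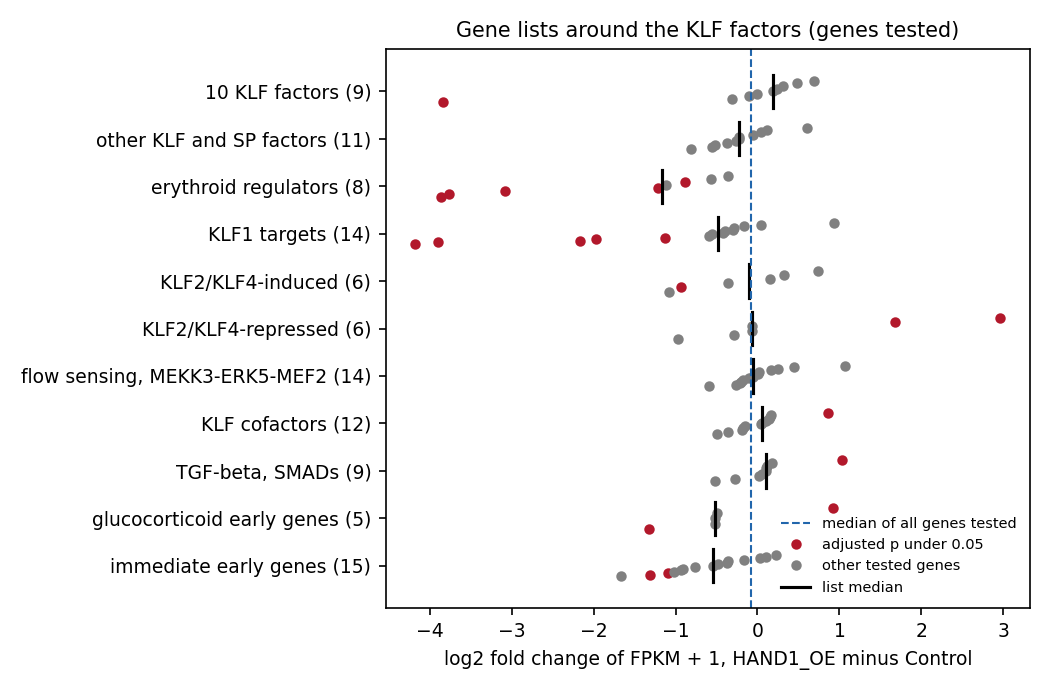
Log2 difference of each tested gene, HAND1_OE minus Control, for the KLF members and 10 other lists, with called genes in red, a bar at each list's median and a dashed line at the median of all tested genes (-0.08). The called erythroid regulators and KLF1 targets lie to the left, down to -4.18, ANGPT2 and CCL2 lie to the right, and the flow-sensing list holds no called gene.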

How the data were processed

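RNA was sequenced from 2 Control and 2 HAND1_OE samples of day 8 CD31+ cells with an Illumina TruSeq total RNA kit. The titles of the samples gave the groups. The authors deposited 1 table of 58365 rows, taken to hold FPKM, the unit the study plots, since the table names none. The submitters' processing notes name BWA, Bowtie and RSEM and the build hg19, but the gene coordinates in the table are those of GRCh38 and are given so here, starts counted from 1. After 45 pseudoautosomal Y copies and 91 repeated rows had been dropped, 58229 genes remained. No count of reads is given, so the depth is unknown and no counting interval was made.

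Genes at 1 FPKM or more in at least 2 libraries were tested with limma 3.58.1 (R 4.3.3, trended variance, no block) on log2(FPKM + 1), two-sided, with Benjamini-Hochberg adjustment over all tested genes and a threshold of 0.05. A gene under 1 FPKM in both libraries of a group passed this filter through the other group alone. For such a gene only 1 direction of difference could be found. The procedure was tested on simulated data. Sums of genes were compared by exact permutation. The KLF members and the gene lists were chosen with earlier results of these data known. Genes named are the members, HAND1, up to 3 called genes with the largest difference of each list, and the 5 nearest to KLF1. A gene that this rule would name is not reported here. Others, given because they define a list's limits, were chosen after their values were seen. Alternatives were a pseudocount of 0.1, 2 other filters, median-ratio and quantile scaling, limma without trend, a replicate block and leaving out each library. Coding sequences were read from GENCODE transcripts and promoters from RefSeq.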

Additional observations from a re-analysis of the deposited data

How the results depend on the processing

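KLF1 passed the threshold in 9 of 10 alternatives that gave it a value, with the same sign in all 10. With no filter on low values, 29860 genes were tested and limma called 0 lower and 0 higher (2352 and 1458 at an unadjusted p under 0.05), so that 0 KLF factors were called lower (1 at an unadjusted p under 0.05) and KLF1 and HAND1 (5.20) each had an adjusted p of 0.153. With 1 FPKM required in every library 7 members were tested, KLF1 was not among them, and 0 were called lower. Leaving out each library in turn gave 137 to 309 genes called lower and 134 to 266 called higher. With the replicate number as a block, 712 genes were called lower and 597 higher, and 1 KLF factor was called higher, KLF7 (0.69, adjusted p = 0.0434). Same-numbered libraries deviated together (r = 0.38 over 14622 genes, which are not independent replicates), but the 2 pairs share only a number. The other 8 tested members gave 87 values, of which 1 passed the threshold and 9 changed sign, in 4 members. Leaving out a library gave -0.12 (HAND1_OE 1) to 0.49 for KLF2, -0.26 to 0.057 (Control 2) for KLF5, which was also above 0 at 0.048 without HAND1_OE 1, -0.060 (Control 1) to 0.54 for KLF10 and -0.091 to 0.069 (HAND1_OE 2) for KLF13, which was also above 0 at 0.039 without Control 2. KLF5 was 0.021 with quantile scaling, and KLF13 was 0.11 with quantile and 0.045 with median-ratio scaling. The causes were not tested. KLF6 kept its sign in every alternative (0.43 to 0.57) and was never called.

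With 2 libraries in a group and no read counts, tested KLF members other than KLF1 and KLF6 had intervals that included 0, and KLF6 missed the threshold after adjustment over all genes.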
